A study of Arabidopsis thaliana with 4 samples.

Results

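The 44 genes described here are the nuclear Arabidopsis thaliana genes for the light-harvesting proteins of both photosystems and for the photosystem subunits that the nucleus encodes. They were taken by a list of loci from the 33518 loci of the count tables, and no measured value enters that rule. The set holds 6 LHCA genes (the antenna of photosystem I), 15 LHCB genes (the antenna of photosystem II), 12 PSA genes (photosystem I) and 11 PSB genes (photosystem II). The study sequenced RNA of seedlings grown for 5 days in constant light, with 2 libraries of the wild-type accession Col-0 and 2 libraries of HBI1-Ox. HBI1-Ox plants carry 35S::HBI1-YFP, the basic helix-loop-helix transcription factor HBI1 fused to yellow fluorescent protein and driven by a viral promoter that is active in most plant tissues. Both groups had the same age, light and half-strength MS medium, and no other treatment is named in the labels. A single HBI1-Ox line was sequenced, so effects of the HBI1 level and other differences of that line cannot be told apart.

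In photosynthesis, photosystem II takes electrons from water and photosystem I passes them on to ferredoxin, which feeds the reduction of NADP. Each photosystem has a core and a surrounding antenna of chlorophyll-binding LHC proteins: LHCA proteins sit beside photosystem I, while LHCB1, LHCB2 and LHCB3 form trimers and LHCB4, LHCB5 and LHCB6 are single-protein links beside photosystem II. The proteins of the reaction centres are largely encoded in the chloroplast genome, and the genes described here encode the antenna and the outer subunits, which are imported from the cytosol.

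The LHCB1 copies on chromosome 1 are shown first, because these neighbouring and nearly identical genes differed in how they changed. LHCB1.2 (AT1G29910, chr1:10472280-10473502, minus strand), LHCB1.1 (AT1G29920, chr1:10474656-10475969, minus strand) and LHCB1.3 (AT1G29930, chr1:10477885-10479114, plus strand) lie side by side, in coordinates of the RefSeq annotation of build TAIR10.1. Their coding sequences are 804 bases each, are identical at 95.65% to 96.39% of positions in pairs, and fail to agree among all 3 copies at 47 positions. The first 150 coding bases of each follow, 5′ to 3′ from the start codon, with capitals at the 10 positions of this stretch where not all 3 copies agree.
LHCB1.1: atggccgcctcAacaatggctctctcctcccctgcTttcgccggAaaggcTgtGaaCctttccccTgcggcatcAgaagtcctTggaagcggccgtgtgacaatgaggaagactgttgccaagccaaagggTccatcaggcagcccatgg
LHCB1.2: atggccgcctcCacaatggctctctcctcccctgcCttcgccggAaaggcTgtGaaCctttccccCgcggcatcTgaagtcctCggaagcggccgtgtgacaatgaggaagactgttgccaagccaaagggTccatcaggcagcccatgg
LHCB1.3: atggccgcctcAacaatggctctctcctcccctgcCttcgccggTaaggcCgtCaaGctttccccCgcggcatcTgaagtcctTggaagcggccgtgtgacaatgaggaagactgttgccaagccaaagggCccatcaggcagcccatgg

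Promoters are shown for LHCB2.3, the member with the largest change, for LHCB1.3, which did not pass the test, and for LHCB1.5, the LHCB1 copy with the largest change. Each is the 300 bases before the annotated gene start in TAIR10.1, 5′ to 3′ on the gene's own strand, at chr3:10255606-10255905 (plus strand), chr1:10477585-10477884 (plus strand) and chr2:14523569-14523868 (minus strand). Capitals mark every match, on either strand, to the G-box CACGTG, the I-box core GATAAG, the CCAAT-type word CCAATC and the TATA word TATAAA. None of these words shares letters with another one in the stretches shown.
LHCB2.3: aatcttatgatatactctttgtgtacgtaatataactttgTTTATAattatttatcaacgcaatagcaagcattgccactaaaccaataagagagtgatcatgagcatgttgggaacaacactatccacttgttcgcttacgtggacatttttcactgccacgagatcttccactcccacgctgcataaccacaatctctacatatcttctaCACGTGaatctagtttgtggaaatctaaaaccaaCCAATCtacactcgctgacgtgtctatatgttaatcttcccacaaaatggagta
LHCB1.3: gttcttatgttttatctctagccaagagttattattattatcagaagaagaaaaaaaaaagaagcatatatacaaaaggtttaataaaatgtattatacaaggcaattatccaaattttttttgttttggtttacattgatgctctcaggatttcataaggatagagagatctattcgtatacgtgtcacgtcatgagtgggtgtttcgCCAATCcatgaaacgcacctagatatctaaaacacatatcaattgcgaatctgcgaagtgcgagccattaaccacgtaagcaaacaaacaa
LHCB1.5: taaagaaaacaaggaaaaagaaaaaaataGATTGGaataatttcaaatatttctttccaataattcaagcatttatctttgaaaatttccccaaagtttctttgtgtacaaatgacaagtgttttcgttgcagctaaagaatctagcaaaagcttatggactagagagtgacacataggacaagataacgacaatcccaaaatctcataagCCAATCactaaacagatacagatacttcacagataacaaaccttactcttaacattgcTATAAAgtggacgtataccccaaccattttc
The LHCB2.3 stretch holds 1 G-box, 1 CCAATC and 1 TATAAA, the LHCB1.3 stretch holds 1 CCAATC alone, and the LHCB1.5 stretch holds 2 CCAATC and 1 TATAAA. Over all 44 members, 22.7% of these 300-base stretches held CACGTG, against 7.09% of the 27443 promoters of the annotation. CCAATC was in 29.5% of the members' stretches and 12.2% of all, GATAAG in 20.5% and 14.5%, and TATAAA in 47.7% and 52.9%. With the stretch from 250 bases before to 50 bases after the start, the shares of members were 36.4% for CACGTG, 40.9% for GATAAG, 34.1% for CCAATC and 45.5% for TATAAA, against 7.68%, 14.6%, 12.3% and 52.1% of all promoters. The shares therefore depend on the window, and a match describes these letters and no binding of a factor.

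HBI1 itself (AT2G18300) was the check of the line, with 99.3 and 84.6 CPM in Col-0 libraries 1 and 2 and 1567 and 1509 CPM in HBI1-Ox libraries 1 and 2. Its level is given as CPM, the reads of a gene per 1e+06 reads on genes, with library sizes scaled by TMM factors, the unit used throughout. Reads of the transgene and of the native gene cannot be told apart at this locus, and their joint log2 change, HBI1-Ox over Col-0, was 4.06 ± 0.09 (SE), edgeR adjusted p = 1.7e-05. Reads on genes ranged from 10785178 to 19647745 per library. Whether the paired libraries of each group stem from separate cultures is not stated in the labels, and the p-values therefore measure only the spread between these libraries. The HBI1-Ox libraries were much closer to each other than the Col-0 libraries. Over all genes, the chi-square per gene was 1.72 for the pair of HBI1-Ox libraries and 8.04 for the pair of Col-0 libraries. Counting error alone gives about 1. For the members alone, the median chi-square was 10.2 for the HBI1-Ox pair and 26.3 for the Col-0 pair. The members thus differed by well more than counting error within both groups.

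Most of the photosystem and antenna genes were higher in HBI1-Ox. In a fit over all genes, 42 of the 44 members rose, none fell and 2 did not pass, with calls made by the quasi-likelihood test of edgeR at a Benjamini-Hochberg adjusted p under 0.05 over 20320 tested genes. Of all tested genes, 8.33% were called higher and 7.15% were called lower; of the 1663 genes averaging 100 CPM or more, where most members lie, 28.6% were called higher. The median log2 change of the members was 0.57, from -0.30 to 1.13, beside a median of -0.01 over all tested genes. All 6 LHCA genes rose (median 0.60), as did 13 of 15 LHCB genes (median 0.50), all 12 PSA genes (median 0.57) and all 11 PSB genes (median 0.58). For 42 members both HBI1-Ox libraries stood above both Col-0 libraries, an order that 29.7% of all tested genes shared. Since whole seedlings were sequenced, more photosynthetic cells per seedling and more of these RNAs per cell cannot be told apart.

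The number of calls rested on having both HBI1-Ox libraries. Without HBI1-Ox library 1, 9 members passed (2 LHCA, 5 LHCB, 1 PSA, 1 PSB) where 1.17% of all genes tested were called higher, and without HBI1-Ox library 2, 10 passed (2 LHCA, 5 LHCB, 1 PSA, 2 PSB) where 1.4% of all genes were. With both summed as 1 sample, 12 passed (2 LHCA, 5 LHCB, 2 PSA, 3 PSB), while the calls over all genes fell to 307 higher and 271 lower. The members called higher under all 13 alternatives were 8: LHCA1, LHCA3, LHCB1.5, LHCB2.1, LHCB2.2, LHCB2.3, LHCB3 and PSBW. Apart from LHCB1.3 and LHCB4.3, every member had a log2 change above 0 under each of the 13 alternatives. This adds no support, because for each of these members both HBI1-Ox libraries stood above both Col-0 libraries. Leaving out or summing libraries could therefore hardly reverse a sign, and the other alternatives used the same counts.

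**Figure D1:**
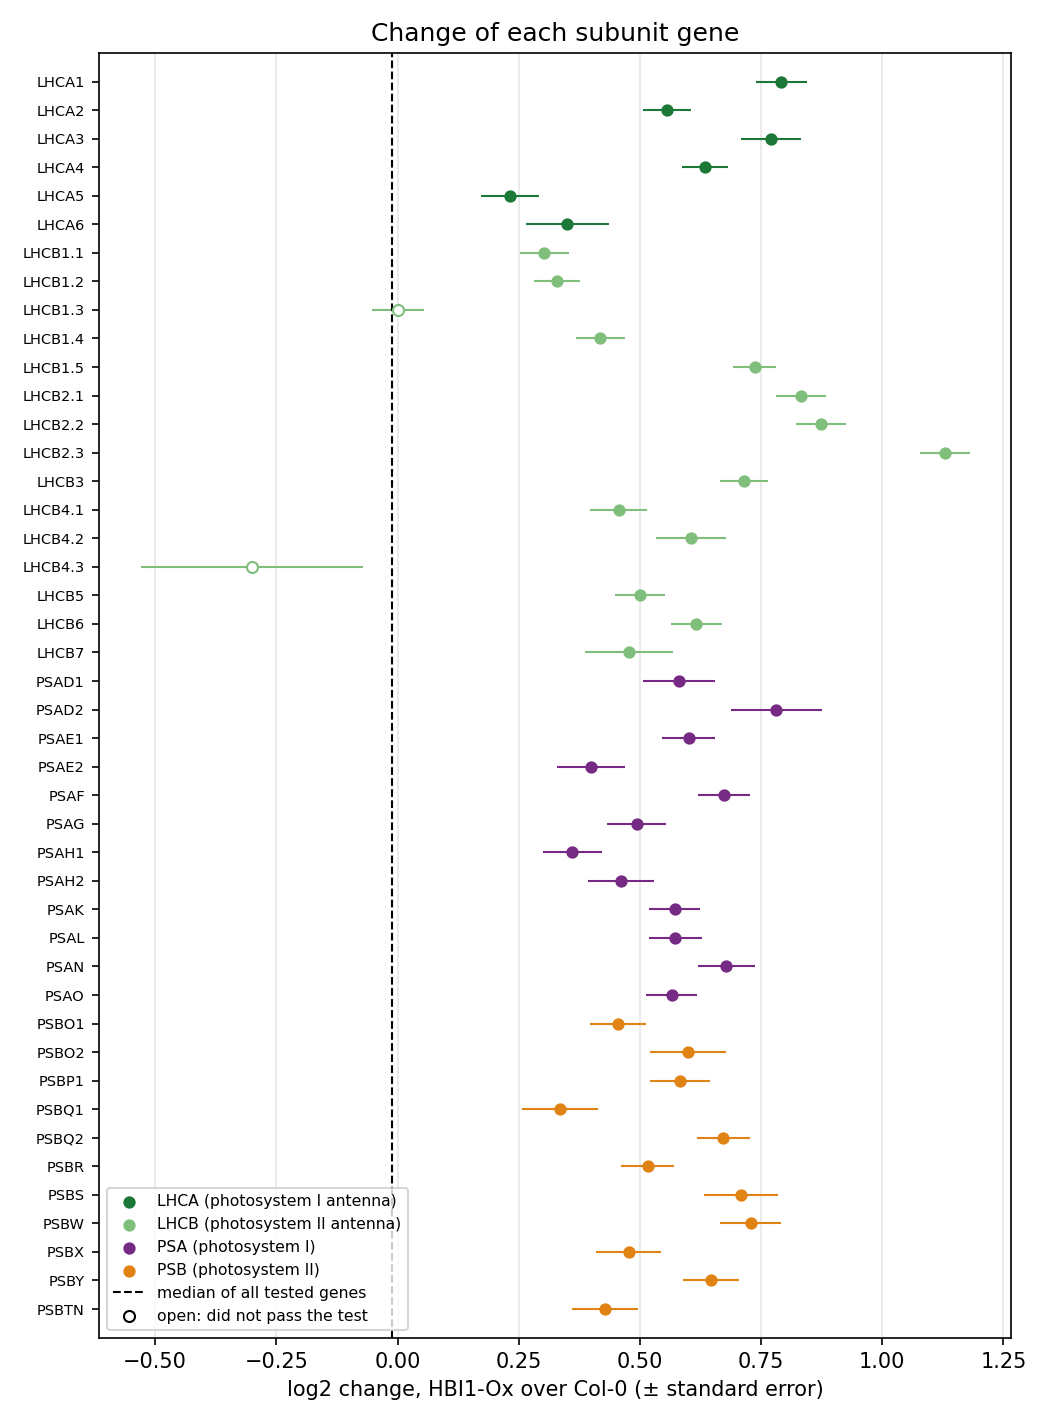
Log2 change of each of the 44 members, HBI1-Ox over Col-0, with bars for 1 standard error and colours for the complex; open circles did not pass the test and the dashed line is the median of all tested genes (-0.01). LHCB2.3 stands farthest right at 1.13, and LHCB1.3 (0.00) and LHCB4.3 (-0.30) are the open circles.

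As a share of all reads on genes, the 44 members together took 11.01% in each Col-0 library, against 13.9% and 14.3% in HBI1-Ox libraries 1 and 2. The LHCB genes made up most of this, with 5.96% and 6.22% for Col-0, against 7.23% and 7.48% for HBI1-Ox. LHCA genes took 1.397% and 1.354% for Col-0, against 1.97% and 2.01% for HBI1-Ox. No complex had overlapping shares between the groups: PSA genes went from 1.68% and 1.59% to 2.19% and 2.24%, and PSB genes from 1.98% and 1.84% to 2.51% and 2.52%. On the scaled CPM, the summed level of the members was 1.42 times as high in HBI1-Ox. That ratio was 1.61 for LHCA, 1.34 for LHCB, 1.502 for PSA and 1.46 for PSB. With 2 libraries a group, an exact permutation test cannot go below p = 0.33, so summed levels and shares carry no test.

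**Figure D2:**
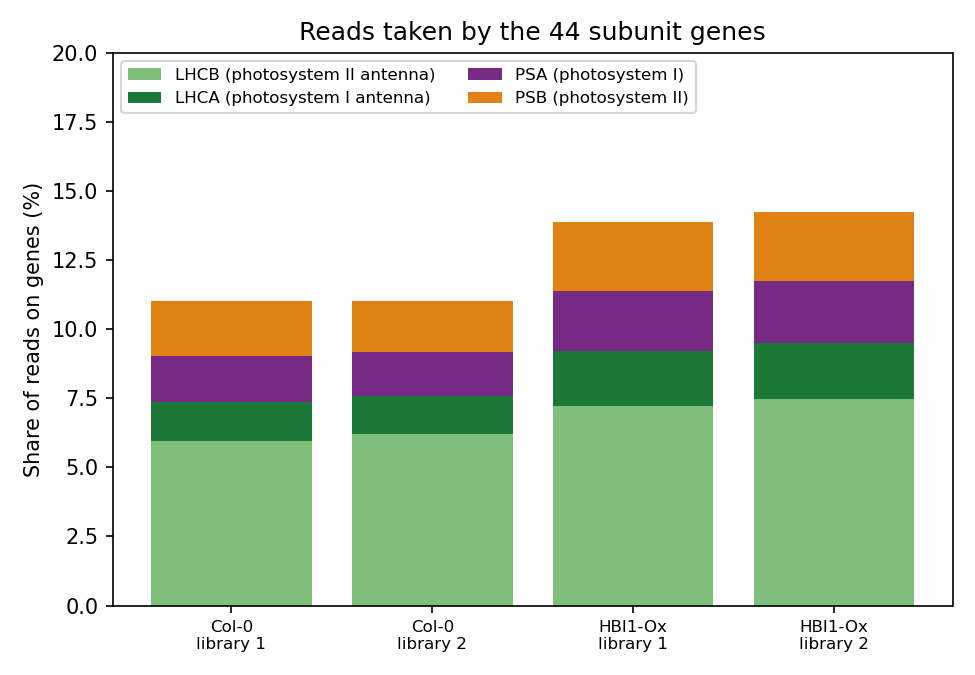
Share of reads on genes (%) taken by the LHCB, LHCA, PSA and PSB genes in each library, stacked. The stacks reach 11.01% in both Col-0 libraries, against 13.9% and 14.3% in the HBI1-Ox libraries.

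The antenna of photosystem I rose with all of its genes, most so the common LHCA proteins. LHCA1 to LHCA4 form the belt that feeds light energy to photosystem I. LHCA1 (AT3G54890, chr3:20339504-20341176) had 3574 and 3340.5 CPM in Col-0 libraries 1 and 2 and 5909.6 and 6063 CPM in HBI1-Ox libraries 1 and 2, a log2 change of 0.79 ± 0.05 (SE), edgeR adjusted p = 0.000437. LHCA3 (AT1G61520) had 2524 and 2279.8 CPM in Col-0 against 4053 and 4146 CPM in HBI1-Ox, a log2 change of 0.77 ± 0.06 (SE), edgeR adjusted p = 0.00087. LHCA4 (AT3G47470), the member of this antenna with the highest level per kb of exon, had 4398 and 4191 CPM in Col-0 against 6641 and 6685 CPM in HBI1-Ox, a log2 change of 0.63 ± 0.05 (SE), edgeR adjusted p = 0.000706. For each of these 3 genes the HBI1-Ox libraries lay close to each other and well above both Col-0 libraries. LHCA2 (AT3G61470) changed by 0.56 ± 0.05 (SE, edgeR adjusted p = 0.00117). LHCA5 and LHCA6 are scarce antenna proteins known to join photosystem I to the NDH complex, which returns electrons from ferredoxin to the plastoquinone pool. LHCA5 (AT1G45474) had 112 and 105 CPM in Col-0 against 126 and 128 CPM in HBI1-Ox, with no overlap, and a log2 change of 0.23 ± 0.06 (SE), edgeR adjusted p = 0.0482. This was the weakest call of the set: it did not pass with DESeq2 (adjusted p = 0.128), with total counts (adjusted p = 0.323) or without either HBI1-Ox library (adjusted p = 0.323 and 0.35). LHCA6 (AT1G19150) had 116 and 99.3 CPM in Col-0 against 133 and 141 CPM in HBI1-Ox, a log2 change of 0.35 ± 0.09 (SE), edgeR adjusted p = 0.0397, and here too the groups did not overlap. It was lost with total counts (adjusted p = 0.102) and without either HBI1-Ox library (adjusted p = 0.218 and 0.301). Relative to the PSA genes, the summed level of LHCA1 to LHCA4 per kb was 0.558 and 0.569 in Col-0 but 0.608 in each library of HBI1-Ox.

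The trimer antenna of photosystem II did not move as one. LHCB2 proteins are the trimer subunits whose phosphorylation by the kinase STN7 is known to let trimers move towards photosystem I in state transitions. All 3 LHCB2 genes rose and were the 3 largest changes of the whole set. LHCB2.3 (AT3G27690, chr3:10255906-10257489, plus strand) had 752 and 726 CPM in Col-0 libraries 1 and 2 and 1603 and 1629.5 CPM in HBI1-Ox libraries 1 and 2, a log2 change of 1.13 ± 0.05 (SE), edgeR adjusted p = 0.000138, or 2.19-fold. LHCB2.2 (AT2G05070) had 1511 and 1435 CPM in Col-0 against 2673 and 2727 CPM in HBI1-Ox, a log2 change of 0.87 ± 0.05 (SE), edgeR adjusted p = 0.000309. LHCB2.1 (AT2G05100) had 1747 and 1678 CPM in Col-0 against 3004 and 3095 CPM in HBI1-Ox, a log2 change of 0.83 ± 0.05 (SE), edgeR adjusted p = 0.000318. In each of them the HBI1-Ox values were far apart from the Col-0 values and all 3 calls held under every alternative. LHCB2.1 and LHCB2.2 share 21.9% and 28.2% of their 50-base exon windows with each other, so how reads were divided between them is uncertain, whereas LHCB2.3 shared no such window with another member. LHCB3 (AT5G54270), the third kind of trimer subunit, changed by 0.71 ± 0.05 (SE, edgeR adjusted p = 0.000466).

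LHCB1, the most abundant trimer protein, is encoded by 5 genes, and these differed widely. LHCB1.3 (AT1G29930) had the highest level per kb of all 44 members in Col-0, at 12541 CPM per kb, ahead of LHCB1.5 at 5820 CPM per kb. It had 14802 and 16049 CPM in Col-0 libraries 1 and 2 and 15221 and 15658 CPM in HBI1-Ox libraries 1 and 2, so the HBI1-Ox values lay between those of Col-0. Its log2 change was 0.00 ± 0.05 (SE), edgeR adjusted p = 0.993. The result for LHCB1.3 turned on single Col-0 libraries: without Col-0 library 1 it was called lower by a small amount (log2 change -0.045, adjusted p = 0.0128), and without Col-0 library 2 it was called higher (0.06, adjusted p = 0.000265). Its near-identical neighbours shown above rose: LHCB1.1 by 0.30 ± 0.05 (SE, edgeR adjusted p = 0.0114) and LHCB1.2 by 0.33 ± 0.05 (SE, edgeR adjusted p = 0.00678). On chromosome 2, LHCB1.5 (AT2G34420, chr2:14522524-14523568, minus strand) had 6117 and 6046 CPM in Col-0 against 9997 and 10268 CPM in HBI1-Ox, a log2 change of 0.74 ± 0.04 (SE), edgeR adjusted p = 0.000313. Its neighbour LHCB1.4 (AT2G34430, chr2:14524607-14525918, plus strand) changed by 0.42 ± 0.05 (SE, edgeR adjusted p = 0.00352). The call of LHCB1.1 was lost with total counts (adjusted p = 0.0704) and without HBI1-Ox library 1 or 2 (adjusted p = 0.239 and 0.301). Between 10.6% (LHCB1.2) and 20.5% (LHCB1.1) of the 50-base exon windows of the LHCB1 copies occur in another member. The sources used here do not state how the authors' counting treated reads that match several copies. In each of the 4 libraries, 0 reads were set aside as not uniquely aligned. This does not tell whether such reads had been removed earlier or were given to a copy. The values of single LHCB1 copies are uncertain to the extent of these shared windows.

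The make-up of the LHCB1 transcripts differed accordingly between the groups. LHCB1.3 held 38.7% and 39.8% of the LHCB1 reads for Col-0, against 32.0% and 31.9% for HBI1-Ox, a difference of -7.30 percentage points. LHCB1.5 went the other way, from 16.0% and 15.0% in Col-0 to 21.0% and 20.9% in HBI1-Ox. The shares of LHCB1.1 stayed between 14.5% and 14.6% in all 4 libraries. Within LHCB2, the share of LHCB2.3 was 18.8% and 18.9% for Col-0, against 22.02% and 21.87% for HBI1-Ox. Summed over copies and per kb, the LHCB2 level was 0.098 and 0.0893 of the LHCB1 level in the Col-0 libraries, against 0.142 and 0.140 of it in the HBI1-Ox libraries. The groups did not overlap in any of these values except the share of LHCB1.1. Counting error in these shares was small: the exact binomial 95% interval of the LHCB1.3 share ran from 38.5% to 38.8% in Col-0 library 1 and from 31.9% to 32.1% in HBI1-Ox library 1.

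**Figure D3:**
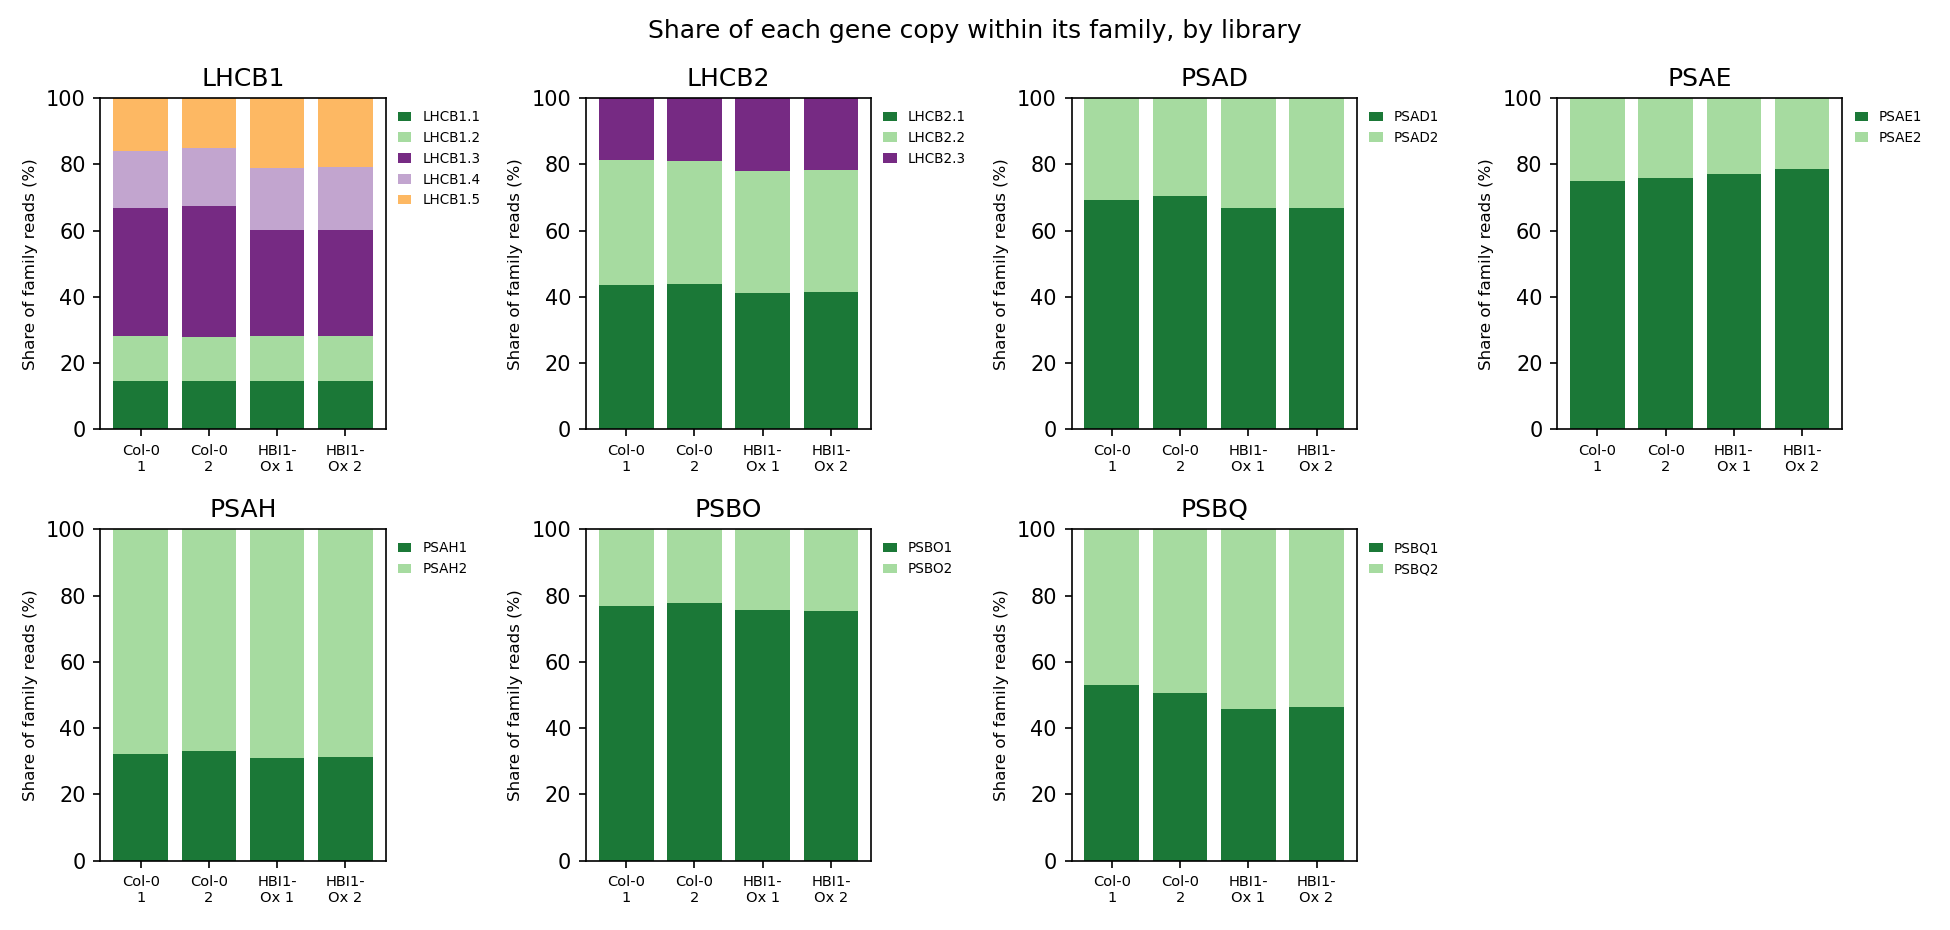
Share (%) of each copy in the reads of its gene family, per library, for the 7 families with several copies that were compared. In the LHCB1 panel the LHCB1.3 band narrows from 38.7% and 39.8% in Col-0 to 32.0% and 31.9% in HBI1-Ox while the LHCB1.5 band widens; in the PSBQ panel the PSBQ1 band narrows from 52.9% and 50.7% to 45.8% and 46.2%.

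The monomeric antenna proteins LHCB4, LHCB5 and LHCB6 tie the trimers to the photosystem II core, and their abundant genes rose by similar amounts. LHCB6 (AT1G15820) changed by 0.62 ± 0.05 (SE, edgeR adjusted p = 0.00102), LHCB4.2 (AT3G08940) by 0.60 ± 0.07 (SE, edgeR adjusted p = 0.00336), LHCB5 (AT4G10340) by 0.50 ± 0.05 (SE, edgeR adjusted p = 0.00211) and LHCB4.1 (AT5G01530) by 0.46 ± 0.06 (SE, edgeR adjusted p = 0.00454). The 2 scarcest members of the whole set also belong here. LHCB4.3 (AT2G40100) had 18.7 and 10.9 CPM in Col-0 libraries 1 and 2 and 12.4 and 11.9 CPM in HBI1-Ox libraries 1 and 2, from 126 to 253 reads. Col-0 library 1 stood apart above the other 3 libraries, and the log2 change of -0.30 ± 0.23 (SE, edgeR adjusted p = 0.428) did not pass. Without Col-0 library 2 it was called lower (-0.62, adjusted p = 1.38e-05), and without Col-0 library 1 its log2 change was 0.16 (adjusted p = 0.436), so its direction rested on single libraries. LHCB7 (AT1G76570), a rare antenna protein, had 14.0 and 14.7 CPM in Col-0 against 19.2 and 20.7 CPM in HBI1-Ox, which did not overlap, and a log2 change of 0.48 ± 0.09 (SE), edgeR adjusted p = 0.0186. Its call was lost with DESeq2 (adjusted p = 0.0877), with total counts (adjusted p = 0.0557) and without HBI1-Ox library 1 or 2 (adjusted p = 0.134 and 0.2).

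**Figure D4:**
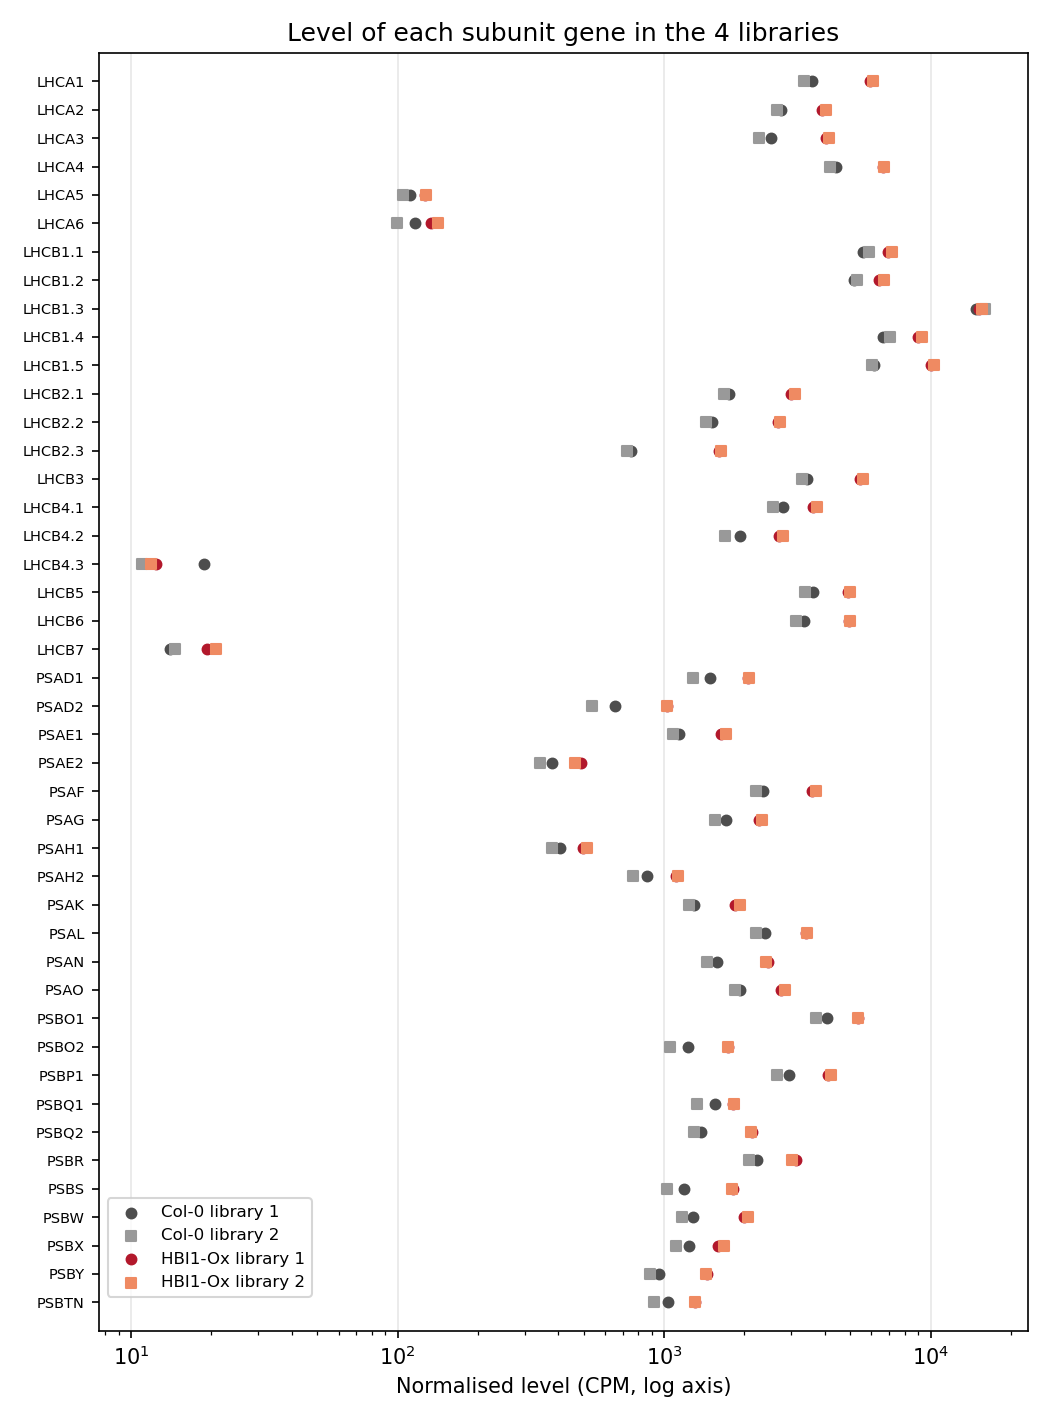
Level of each member in the 4 libraries in CPM on a log axis, grey for Col-0 and red or orange for HBI1-Ox, circles for library 1 and squares for library 2. LHCB1.3 lies farthest right with all 4 symbols between 14802 and 16049 CPM, and LHCB4.3 and LHCB7 lie farthest left at 10.9 to 20.7 CPM.

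Every nuclear subunit gene of photosystem I that was included rose. PSAD and PSAE sit on the stromal face, where ferredoxin docks. PSAD2 (AT1G03130), the largest change of this group, had 656 and 538 CPM in Col-0 libraries 1 and 2 and 1027 and 1026 CPM in HBI1-Ox libraries 1 and 2, a log2 change of 0.78 ± 0.09 (SE), edgeR adjusted p = 0.00347. Its partner copy PSAD1 (AT4G02770) had 1481 and 1283 CPM in Col-0 against 2062 and 2075 CPM in HBI1-Ox, a log2 change of 0.58 ± 0.07 (SE), edgeR adjusted p = 0.00436. The HBI1-Ox libraries lay well above Col-0 for both copies, and PSAD1 held 69.3% and 70.5% of the PSAD reads for Col-0, against 66.8% and 66.9% for HBI1-Ox. PSAE1 (AT4G28750) had 1135 and 1077 CPM in Col-0 against 1640.5 and 1713 CPM in HBI1-Ox and changed by 0.60 ± 0.06 (SE, edgeR adjusted p = 0.00131). PSAE2 (AT2G20260) had 381 and 342 CPM in Col-0 against 489 and 464 CPM in HBI1-Ox and changed by 0.40 ± 0.07 (SE, edgeR adjusted p = 0.0141). Neither PSAE copy overlapped between the groups, and the share of PSAE1 in the pair went from 74.9% and 75.9% to 77.0% and 78.7%. Reads of an antisense neighbour that overlaps PSAE2 came to 6.75% of the reads of PSAE2, the highest such share among overlapping neighbours with counts. Some annotated antisense neighbours of members were not among the counted loci. One of them, AT2G08665, overlaps LHCB1.5 over 1045 bases, the whole gene, and its effect on the LHCB1.5 reads was not tested.

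PSAF and PSAN lie on the lumenal side, where plastocyanin delivers electrons. PSAN (AT5G64040) had 1582 and 1453 CPM in Col-0 libraries 1 and 2 and 2457 and 2401 CPM in HBI1-Ox libraries 1 and 2, a log2 change of 0.68 ± 0.06 (SE), edgeR adjusted p = 0.00107. PSAF (AT1G31330) had 2359 and 2221 CPM in Col-0 against 3582 and 3724 CPM in HBI1-Ox, a log2 change of 0.67 ± 0.05 (SE), edgeR adjusted p = 0.00087. Both showed a clear gap between the groups. PSAG (AT1G55670) and PSAK (AT1G30380), which border the LHCA belt, changed by 0.49 ± 0.06 (SE, edgeR adjusted p = 0.00379) and 0.57 ± 0.05 (SE, edgeR adjusted p = 0.00131). PSAH, PSAL and PSAO form the edge where LHCB trimers dock in state transitions. PSAO (AT1G08380), the PSA gene with the highest level per kb, had 1929 and 1843 CPM in Col-0 against 2735 and 2848 CPM in HBI1-Ox, a log2 change of 0.57 ± 0.05 (SE), edgeR adjusted p = 0.00134. PSAH2 (AT1G52230) had 859 and 763 CPM in Col-0 against 1107 and 1126 CPM in HBI1-Ox and changed by 0.46 ± 0.07 (SE, edgeR adjusted p = 0.00724). The other copy, PSAH1 (AT3G16140), had 407 and 378 CPM in Col-0 against 495 and 512 CPM in HBI1-Ox and changed by 0.36 ± 0.06 (SE, edgeR adjusted p = 0.0117), the smallest change of the PSA genes. PSAH1 made up 32.1% and 33.1% of the PSAH reads for Col-0, against 30.9% and 31.3% for HBI1-Ox, so both copies rose with little change of their balance. PSAL (AT4G12800) changed by 0.57 ± 0.06 (SE, edgeR adjusted p = 0.00155).

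All 11 photosystem II subunit genes rose as well. PSBO, PSBP and PSBQ are the extrinsic proteins that shield the manganese cluster where water is split, and PSBR helps to hold them. PSBO1 (AT5G66570) had 4077 and 3713 CPM in Col-0 libraries 1 and 2 and 5359 and 5325 CPM in HBI1-Ox libraries 1 and 2, a log2 change of 0.46 ± 0.06 (SE), edgeR adjusted p = 0.00422. PSBO2 (AT3G50820) had 1233 and 1055 CPM in Col-0 against 1734.9 and 1731 CPM in HBI1-Ox, a log2 change of 0.60 ± 0.08 (SE), edgeR adjusted p = 0.00485. The pair kept most of its balance, with PSBO1 at 76.8% and 77.9% of PSBO reads for Col-0, against 75.6% and 75.5% for HBI1-Ox. PSBQ1 (AT4G21280) had 1549 and 1328 CPM in Col-0 against 1806 and 1825 CPM in HBI1-Ox, a log2 change of 0.34 ± 0.08 (SE), edgeR adjusted p = 0.0341. PSBQ2 (AT4G05180) had 1380.2 and 1292 CPM in Col-0 against 2137 and 2123 CPM in HBI1-Ox, a log2 change of 0.67 ± 0.05 (SE), edgeR adjusted p = 0.000885. The share of PSBQ1 among PSBQ reads was 52.9% and 50.7% for Col-0, against 45.8% and 46.2% for HBI1-Ox. Per kb of exon its share was 58.9% and 56.7% for Col-0, against 51.9% and 52.3% for HBI1-Ox. Which copy was the more abundant in HBI1-Ox thus depended on the measure: PSBQ2 by reads and PSBQ1 per kb. In Col-0 it was PSBQ1 by both. The call of PSBQ1 was lost with total counts (edgeR adjusted p = 0.0761) and when either HBI1-Ox library was left out. PSBP1 (AT1G06680) changed by 0.58 ± 0.06 (SE, edgeR adjusted p = 0.00235). PSBR (AT1G79040), the PSB gene with the highest level per kb, had 2222 and 2078 CPM in Col-0 against 3133 and 3017 CPM in HBI1-Ox, a log2 change of 0.52 ± 0.06 (SE), edgeR adjusted p = 0.00231.

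The remaining photosystem II genes encode small or regulatory subunits. PSBS (AT1G44575), the protein that switches on the dissipation of excess light energy as heat, had 1189 and 1025 CPM in Col-0 libraries 1 and 2 and 1817 and 1802 CPM in HBI1-Ox libraries 1 and 2, a log2 change of 0.71 ± 0.08 (SE), edgeR adjusted p = 0.00237. PSBW (AT2G30570), a small membrane subunit, had 1284 and 1168 CPM in Col-0 against 1997 and 2066 CPM in HBI1-Ox, a log2 change of 0.73 ± 0.06 (SE), edgeR adjusted p = 0.00105, the largest of the PSB genes and the only one of them called under all 13 alternatives. Neither gene overlapped between the groups. The small membrane subunits PSBX (AT2G06520) and PSBY (AT1G67740) changed by 0.48 ± 0.07 (SE, edgeR adjusted p = 0.00627) and 0.65 ± 0.06 (SE, edgeR adjusted p = 0.0012), and the lumenal PSBTN (AT3G21055) by 0.43 ± 0.07 (SE, edgeR adjusted p = 0.00945). Per kb, the summed PSA level was 1.02 and 1.04 times the PSB level for Col-0, against 1.05 and 1.07 times for HBI1-Ox. The LHCB level per kb was 2.70 and 3.03 times the PSB level for Col-0, against 2.61 and 2.68 times for HBI1-Ox.

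The authors' deposited table of log2 fold changes listed 20 of the 44 members, 2 LHCA, 5 LHCB, 7 PSA and 6 PSB, each with a value above 0. The authors' deposited table gave LHCB2.3 1.15, LHCA1 0.81 and PSAD2 0.80. The sources used here do not state the rule behind its 1256 rows. Of the 24 members that the authors' deposited table does not list, 22 were called higher in the edgeR fit. The smallest value above 0 in the authors' deposited table was 0.585, and the edgeR values of the listed members differed from the authors' by -0.0168 to -0.0166. With the median difference made up, 21 of the 24 unlisted members stayed below 0.585. The unlisted members included LHCB2.2, LHCB2.1 and LHCA4, whose edgeR log2 changes (0.87, 0.83 and 0.63) were above the lowest edgeR value among the listed ones (0.57).

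Genes that work next to the photosystems rose in part. The electron transport list holds 10 genes for the carriers between the photosystems and around photosystem I, and 5 of them rose, none fell, with a median log2 change of 0.29. FD2 (AT1G60950), the main leaf ferredoxin, had 1240.1 and 1174 CPM in Col-0 against 1948 and 2021 CPM in HBI1-Ox, a log2 change of 0.72 ± 0.05 (SE), edgeR adjusted p = 0.000729. PETC (AT4G03280), the Rieske protein of the cytochrome b6f complex, had 950.2 and 856 CPM in Col-0 against 1204 and 1206 CPM in HBI1-Ox, a log2 change of 0.42 ± 0.06 (SE), edgeR adjusted p = 0.0085. These genes stood higher in both HBI1-Ox libraries than in either Col-0 library. All 3 nuclear genes of the chloroplast ATP synthase rose (median 0.42), with ATPD (AT4G09650) at 0.47 ± 0.07 (SE, edgeR adjusted p = 0.00627) and ATPC1 (AT4G04640) at 0.42 ± 0.07 (SE, edgeR adjusted p = 0.0124). Of 12 genes for assembly, membrane insertion and reversible phosphorylation of the complexes, 5 rose and none fell (median 0.17; with total counts 2 rose and 1 fell). STN7 (AT1G68830), the kinase of state transitions, had 106 and 103 CPM in Col-0 against 147 and 146 CPM in HBI1-Ox, a log2 change of 0.49 ± 0.06 (SE), edgeR adjusted p = 0.00304. PSB27 (AT1G03600), a photosystem II assembly factor, changed by 0.40 ± 0.06 (SE, edgeR adjusted p = 0.00651). These calls too needed both HBI1-Ox libraries: without library 1 or library 2 of HBI1-Ox, FD2 passed and no other gene of the electron transport, ATP synthase, assembly, LHC-like and regulator lists did. Without Col-0 library 1, in contrast, all 10 electron transport genes and 10 of the 12 assembly genes were called higher, in a fit that called 17.0% of all genes higher in place of 8.33%.

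Relatives of the antenna proteins and the known regulators showed no common direction. Among 7 LHC-like genes 2 rose and 1 fell, with a median of -0.16. The one-helix proteins OHP2 (AT1G34000) and OHP1 (AT5G02120), which assist in the assembly of pigment proteins, changed by 0.41 ± 0.06 (SE, edgeR adjusted p = 0.00583) and 0.44 ± 0.06 (SE, edgeR adjusted p = 0.00594). ELIP2 (AT4G14690), an early light-induced protein, was the one that fell and was named after its values were seen. It stood at 3.32 and 5.20 CPM in Col-0 against 1.72 and 1.90 CPM in HBI1-Ox, a log2 change of -1.22 ± 0.28 (SE), edgeR adjusted p = 0.0329. Of 10 regulators, 2 rose and 1 fell, with a median of -0.09. GLK1 (AT2G20570) and GLK2 (AT5G44190), transcription factors known to activate many antenna genes, did not pass. GLK1 had 69.2 and 69.4 CPM in Col-0 against 63.4 and 64.6 CPM in HBI1-Ox, a log2 change of -0.11 ± 0.06 (SE), edgeR adjusted p = 0.253. GLK2 had 132 and 157 CPM in Col-0 against 139.9 and 134 CPM in HBI1-Ox, a log2 change of -0.08 ± 0.09 (SE), edgeR adjusted p = 0.614. The regulators that rose were sigma factors of the plastid RNA polymerase, SIG1 (AT1G64860) by 0.51 ± 0.07 (SE, edgeR adjusted p = 0.00509) and SIG5 (AT5G24120) by 0.59 ± 0.10 (SE, edgeR adjusted p = 0.011). The other sigma factors of the list, named after their values were seen, did not pass. SIG2 (AT1G08540) changed by 0.02 ± 0.08 (SE, edgeR adjusted p = 0.886) and SIG6 (AT2G36990) by -0.19 ± 0.06 (SE, edgeR adjusted p = 0.0971). The GATA factor CGA1 (AT4G26150), named after its values were seen, fell: it had 14.8 and 19.1 CPM in Col-0 against 11.5 and 11.9 CPM in HBI1-Ox, a log2 change of -0.54 ± 0.14 (SE), edgeR adjusted p = 0.047. With total counts 3 LHC-like genes and 3 regulators fell, and DESeq2 called none of either list lower. Without Col-0 library 1, 3 LHC-like genes rose and 3 fell, and 4 regulators rose and 4 fell; without Col-0 library 2, 3 LHC-like genes rose and 4 fell. These fits also made more calls over all genes, with 3516 higher and 3009 lower in the first and 3010 higher and 2773 lower in the second, in place of 1693 and 1452. Of 20 plastid-genome loci, to which the files and the reference attach no gene name, 15 were tested and 1 rose, ATCG00280 at 0.84 ± 0.17 (SE, edgeR adjusted p = 0.0224). None of 15 passed without HBI1-Ox library 1 and 1 of 17 without HBI1-Ox library 2. Of 19 tested, 4 rose when Col-0 library 1 was left out and 8 when the other Col-0 library was, where 17.0% and 14.5% of all genes were called higher. The summed level of the 20 loci was 63.0 and 97.9 CPM for Col-0, against 181 and 112 CPM for HBI1-Ox.

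Organ markers were set beside these results because whole seedlings hold leaves, roots and seed remains. None of the 6 leaf identity genes rose and 1, AS1 (AT2G37630), fell with a log2 change of -0.30 ± 0.06 (SE, edgeR adjusted p = 0.024), with a summed level of 151 and 143 CPM for Col-0, against 128 and 126 CPM for HBI1-Ox. None of the 10 root genes rose and 2 fell, CASP2 (AT3G11550) at -0.33 ± 0.06 (SE, edgeR adjusted p = 0.0193) and PHO1 (AT3G23430) at -0.48 ± 0.11 (SE, edgeR adjusted p = 0.0314). The summed level of the root genes was 319 and 354 CPM for Col-0, against 301 and 293 CPM for HBI1-Ox. The 3 seed storage genes did not pass, with summed levels of 10.7 and 15.0 CPM for Col-0, against 14.6 and 15.9 CPM for HBI1-Ox. Of all tested genes, 8.33% were called higher and 7.15% lower, and the marker counts are too small to be set apart from these shares. Without HBI1-Ox library 1 or 2 none of the marker genes passed, while single Col-0 libraries moved the counts. Without Col-0 library 1, the list medians were -0.188 for leaf, -0.147 for root and 0.166 for seed genes. Without Col-0 library 2, they were -0.276, -0.0988 and 0.402. None of these lists was at 0 in a library, the leaf and root lists were lower in both HBI1-Ox libraries than in both Col-0 libraries, and their part in the result was not tested.

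**Figure D5:**
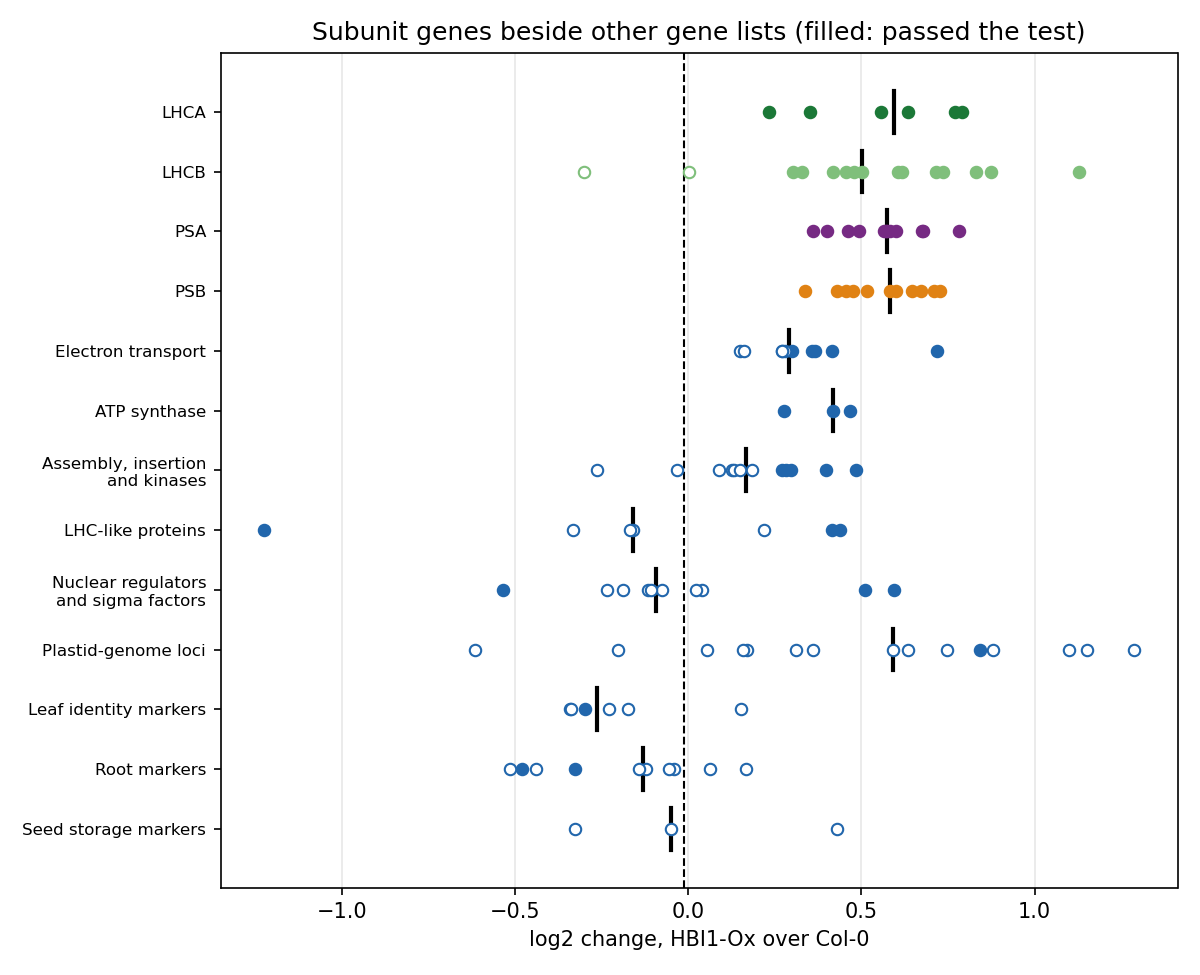
Log2 change, HBI1-Ox over Col-0, of each tested gene of the complexes and of the other lists; filled circles passed the test, black bars are list medians and the dashed line is the median of all tested genes (-0.01). The complexes have medians of 0.50 to 0.60, and electron transport lies at 0.29. The plastid-genome loci lie at 0.59, but their median ran from 0.15 to 0.991 when single libraries were dropped. The lower end came from the fit that dropped replicate 1 of HBI1-Ox. The marker lists for leaf, root and seed have medians of -0.26, -0.13 and -0.05, and each list holds genes above 0. With single libraries left out, the seed median ran from -0.4 to 0.402.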

How the data were processed

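RNA of 5-day-old seedlings was sequenced in 4 libraries, 2 of Col-0 and 2 of HBI1-Ox, grouped and numbered by the labels. The values deposited by the authors are raw counts of reads for 33518 loci in each library and a separate table of log2 fold changes. The submitters' processing notes name TopHat, DESeq and build TAIR10. Versions, read counter and strand setting are not stated in the sources used here. Rows that name no gene held 13.2% to 13.7% of the table totals and were left out.

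Low genes were removed with filterByExpr (minimum count 10, minimum total 15). After TMM scaling, glmQLFit and glmQLFTest of edgeR 4.0.16 (R 4.3.3) compared HBI1-Ox with Col-0 over all 4 libraries, with 2 residual degrees of freedom and without a block. P-values of the 20320 tested genes were adjusted together by the Benjamini-Hochberg method and called under 0.05. The biological coefficient of variation came to 8.16%. Standard errors of log2 changes were derived from the F statistic (absolute change over its square root). CPM were computed on the scaled library sizes, and levels per kb on the union of annotated exons. Intervals at 95% cover counting error only. The procedure was tested on simulated data. Alternatives were RLE factors, total counts, factors without the members, no filter, at least 1 CPM in 2 libraries, the Wald test of DESeq2 1.42.0, voom in limma 3.58.1, the replicate number as a block, each library left out, and the HBI1-Ox libraries summed.

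The members and all gene lists were chosen with earlier results of these data known. Values in every library are given for the 3 called members of each complex with the largest change, the one with the highest level per kb, the paired PSAD, PSAE, PSAH, PSBO and PSBQ copies, LHCA5, LHCA6, LHCB4.3 and LHCB7, GLK1 and GLK2; in other lists up to 2 called genes with the smallest adjusted p are named. All 44 symbols are listed for their loci in the RefSeq annotation of TAIR10.1, the source of the sequences. The promoter window was chosen after seeing the data. Shared sequence was measured as identical windows of 50 bases in spliced transcripts.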

Additional observations from a re-analysis of the deposited data

How the results depend on the processing

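With RLE factors, factors without the members, no low-count filter, a filter of 1 CPM or limma-voom, all 44 members kept their calls. DESeq2 called 40 members higher, without LHCA5 and LHCB7. Over all genes it called 1150 higher (5.66%) against 1693 (8.33%), and 844 lower against 1452. It called 1 root marker lower. The electron transport, ATP synthase, assembly, LHC-like, regulator and plastid lists (below, the 6 lists) then held no gene called lower. With edgeR, 2 genes of the 6 lists and 3 markers were lower. When libraries were scaled by total counts alone, the all-gene median moved from -0.01 to -0.16, and 995 genes were higher and 3494 lower, so that 22.2% of all calls were higher in place of 53.8%. Member medians then were 0.42 over all, 0.44 for LHCA, 0.35 for LHCB, 0.42 for PSA and 0.43 for PSB, the log2 ratio of summed CPM was 0.35 in place of 0.50, 7 genes of the 6 lists, 3 leaf markers and 3 root markers fell, and 37 members were higher. The distance between the members' median and that of all genes was 0.585 under either scaling. A change of scaling shifts all genes by nearly the same amount, so this distance could not move and tests nothing. Per kb, the LHCB2.3 share differed by 2.83 percentage points in place of 3.11.

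With the HBI1-Ox libraries summed, 307 genes were higher and 271 lower, and 12 members were higher: 2 LHCA, 5 LHCB, 2 PSA and 3 PSB. In the 6 lists 1 gene then was higher and 0 lower, and no marker passed. Leaving out 1 library at a time gave 242 to 3516 genes higher and 187 to 3009 lower. Members ranged from 9 to 43 higher and from 0 to 1 lower, LHCA from 2 to 6 higher, LHCB from 5 to 14 higher and 0 to 1 lower, PSA from 1 to 12 higher and PSB from 1 to 11 higher. The 6 lists ranged from 1 to 34 higher and from 0 to 7 lower, the leaf markers from 0 to 1 and 0 to 3, the root markers from 0 to 1 and 0 to 3, the seed markers from 0 to 1 higher with none lower, and the LHCB median from 0.50 to 0.56. The low counts came without an HBI1-Ox library and the high ones without a Col-0 library; where a group kept 1 library, its spread was taken from the other group, and the HBI1-Ox libraries were the closer pair. LHCB1.3 reversed to -0.045 without Col-0 replicate 1 and was 0.0616 without Col-0 replicate 2 (0.00 with all libraries).

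The labels give both groups the same replicate numbers. The differences between replicates 1 and 2 were not correlated between the groups (r = -0.0218 across 12524 genes). This cannot decide whether equal numbers stand for a shared culture or harvest, as the HBI1-Ox libraries differed little over all genes. The labels do not say. With the replicate number as a block, 41 members were higher, without LHCA5 (adjusted p = 0.0816), and 1459 genes were higher and 1337 lower in all. The members with the fewest reads were LHCB4.3 (126 to 253 reads per library) and LHCB7 (169 to 358 reads).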

Other observations

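The Col-0 libraries differed from each other more than the HBI1-Ox libraries did, and the subunit genes shared in it. In Col-0, 39 of the 44 members were higher in library 1 than in library 2, with a median log2 difference of 0.10 and a range from -0.12 to 0.77, the highest being LHCB4.3. The share of all genes in that order was not computed. Taken from each gene's mean log2 level over the 4 libraries, the members' median was -0.24 in Col-0 library 1 and -0.33 in library 2. Over all tested genes these medians were 0.003 and 0.008. The 5 members that were lower in Col-0 library 1 were LHCB1.1, LHCB1.2, LHCB1.3, LHCB1.4 and LHCB7. In HBI1-Ox, 11 members were higher in library 1 and 33 in library 2, with a median log2 difference of -0.03. The median absolute difference was 0.11 in Col-0 and 0.04 in HBI1-Ox, both well under the median change of 0.57 between the groups.

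The G-box word CACGTG was found in the 300-base stretch of 10 members: 1 LHCA, 4 LHCB, 2 PSA and 3 PSB. They were LHCA4, LHCB2.3, LHCB4.1, LHCB6, LHCB7, PSAE2, PSAH2, PSBQ1, PSBQ2 and PSBTN. Their log2 changes ran from 0.34 (PSBQ1) to 1.13 (LHCB2.3), and LHCB2.1 and LHCB2.2, which also rose strongly, held none. CCAATC was found in 7 of the 15 LHCB stretches and in 1 of the 12 PSA stretches.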
